A study of Homo sapiens with 9 samples.

Results

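Matrix metalloproteinases (MMPs), the ADAM and ADAMTS proteinases and the tissue inhibitors of metalloproteinases (TIMPs) were examined in LX-2 cells, an immortalised human hepatic stellate cell line. The members were taken by gene symbol, as every listed gene named MMP, TIMP, ADAM or ADAMTS followed by a number. This gave 51 of the 20777 genes in the table, of which 18 were MMPs, 4 TIMPs, 14 ADAMs and 15 ADAMTS genes. Of these, 33 had enough reads to be tested among 13384 genes, namely 12 MMPs, all 4 TIMPs, 8 ADAMs and 9 ADAMTS genes.

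RNA-seq was carried out on 9 libraries in 3 groups of 3. The control group was untreated, the second group had received TGF-β, and the third group had received TGF-β and uridine, with both treated groups labelled as day 1. All groups shared the same cell line and genotype label and were maintained in the same serum-containing medium, and by the study's methods TGF-β was given first and uridine was added afterwards with a change of medium. Nothing in the labels states that the replicates were separate cultures, so the p-values measure the spread between these libraries, which may be technical. LX-2 is a single line and stands for stellate cells only as far as such a line does.

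Proteinases of these families cut collagens, proteoglycans and membrane-bound proteins. MMPs are made as inactive precursors and act outside the cell or at its surface, and TIMPs bind their active site and block it. ADAMs are membrane-anchored enzymes best known for shedding the outer part of surface proteins, while ADAMTS enzymes are secreted and cleave proteoglycans, procollagens and other matrix proteins. In the fibrotic liver, activated stellate cells are a known source of both MMP2 and TIMPs, and the balance between the enzymes and their inhibitors is a classical topic of matrix turnover.

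Library totals ranged from 40539751 to 41467124 reads. The libraries differed in how strongly gene level followed the GC content of the gene: the slope of log2 CPM (read counts scaled to library size) on the GC fraction ranged from 3.90 to 13.5 in the control libraries, from 7.62 to 8.47 with TGF-β and from 5.29 to 10.2 with TGF-β and uridine. Control replicate 1 had the highest slope and control replicate 3 the lowest, so the control group carried the widest spread. Of 14 listed stellate cell and fibroblast markers, 10 had at least 10 reads in every library, but COL1A2 and HAND2 had at most 1 read in every library, which goes against the label. The summed level of these markers was 1357 to 1688 CPM in the control group, 2470 to 2569 CPM with TGF-β and 2092 to 2461 CPM with TGF-β and uridine. The epithelial keratins KRT7, KRT8 and KRT18 were abundant. The summed level of the 6 epithelial markers was 7047 to 14029 CPM, 10479 to 11086 CPM and 7925 to 10481 CPM in the same order. Nearly all of that sum came from these keratins, with EPCAM at 0 to 5 reads, CDH1 at 4 to 36 and KRT19 at 36 to 66 reads per library. Leukocyte markers summed to 34.6 to 48.3 CPM, 75.0 to 84.0 CPM and 62.4 to 77.9 CPM, mostly CD68 and CSF1R, with LYZ and CD163 at no more than 2 reads. Hepatocyte markers stayed at or below 0.366 CPM and endothelial markers at or below 2.88 CPM. The part of these marker levels in the results was not tested, and in bulk RNA fewer cells of a type and less RNA per cell cannot be told apart.

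A RefSeq promoter window, from 250 bases before to 50 bases after the gene start on GRCh38.p14, was found for 29 of the 51 members. For orientation, the 150 bases just before the start are shown for ADAM19, the member with the largest rise under TGF-β, for the inhibitor TIMP3, and for MMP7 and MMP10, which were read at or near 0. ADAM19 lies on the minus strand at chr5:157575776-157575925, TIMP3 on the plus strand at chr22:32801555-32801704, MMP10 on the minus strand at chr11:102780629-102780778 and MMP7 on the minus strand at chr11:102530748-102530897. Each is written 5′ to 3′ along its gene, and the capitals mark a match to one of the searched motifs on either strand.
ADAM19: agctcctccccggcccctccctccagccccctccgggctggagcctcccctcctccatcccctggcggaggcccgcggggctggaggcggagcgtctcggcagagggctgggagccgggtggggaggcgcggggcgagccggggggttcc
TIMP3: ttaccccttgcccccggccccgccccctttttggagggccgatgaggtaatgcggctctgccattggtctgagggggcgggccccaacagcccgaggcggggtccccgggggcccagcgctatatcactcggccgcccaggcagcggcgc
MMP10: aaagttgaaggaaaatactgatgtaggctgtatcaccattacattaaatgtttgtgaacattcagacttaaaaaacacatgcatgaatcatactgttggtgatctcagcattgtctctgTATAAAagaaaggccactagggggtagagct
MMP7: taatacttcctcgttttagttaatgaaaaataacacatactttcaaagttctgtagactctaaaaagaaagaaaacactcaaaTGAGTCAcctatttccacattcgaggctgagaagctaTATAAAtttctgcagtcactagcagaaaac

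The 4 promoters differed in base composition. The 150 bases before ADAM19 were 80% G or C and those before TIMP3 72.7%, against 36.7% for MMP10 and 32.7% for MMP7. Over the 250 bases before the start, the 29 members ranged from 33.6% for MMP7 to 80.8% for ADAMTS7. The 4 motifs searched on both strands of the whole window were the AP-1 site TGACTCA, the SMAD-binding CAGA box CAGACA, the TATA box TATAAA and the cAMP response element (CRE) TGACGTCA, and no match overlapped another. The AP-1 site was found in MMP7 alone among the 29 members, against 4.95% of 35116 promoters, and in MMP7 it reads as its reverse complement at 67 bases before the start. The CAGA box was found in MMP7 and ADAMTS13 (16.9% of all promoters), the TATA box in MMP7, MMP10, ADAM21 and ADAMTS10 (11.5%) and the CRE in ADAMTS6 (1.85%). No such match lies in the windows of ADAM19 or TIMP3, which says only that these letters are not in these windows. Members without a window, in which the motifs were not searched, include MMP1, MMP2, MMP3, MMP9, MMP12, MMP13, TIMP2, ADAMTS1, ADAMTS4 and ADAMTS15.

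Levels between genes were compared per length, as FPKM (fragments per kilobase of transcript, scaled to library size). Mean FPKM over the 9 libraries was highest for TIMP1 (136), ADAM15 (129), TIMP2 (81.5), TIMP4 (40.8), MMP2 (31.2), MMP15 (20.5) and TIMP3 (11.8), and every other member was below 5. TIMP1 lay between 112 and 153 FPKM and ADAM15 between 120.1 and 144 FPKM, so the order of these 2 was within their spread. All 4 inhibitors were therefore among the 7 highest members, while the classical enzymes MMP9 and MMP14 were at mean FPKM of 0.234 and 0.0884.

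**Figure D1:**
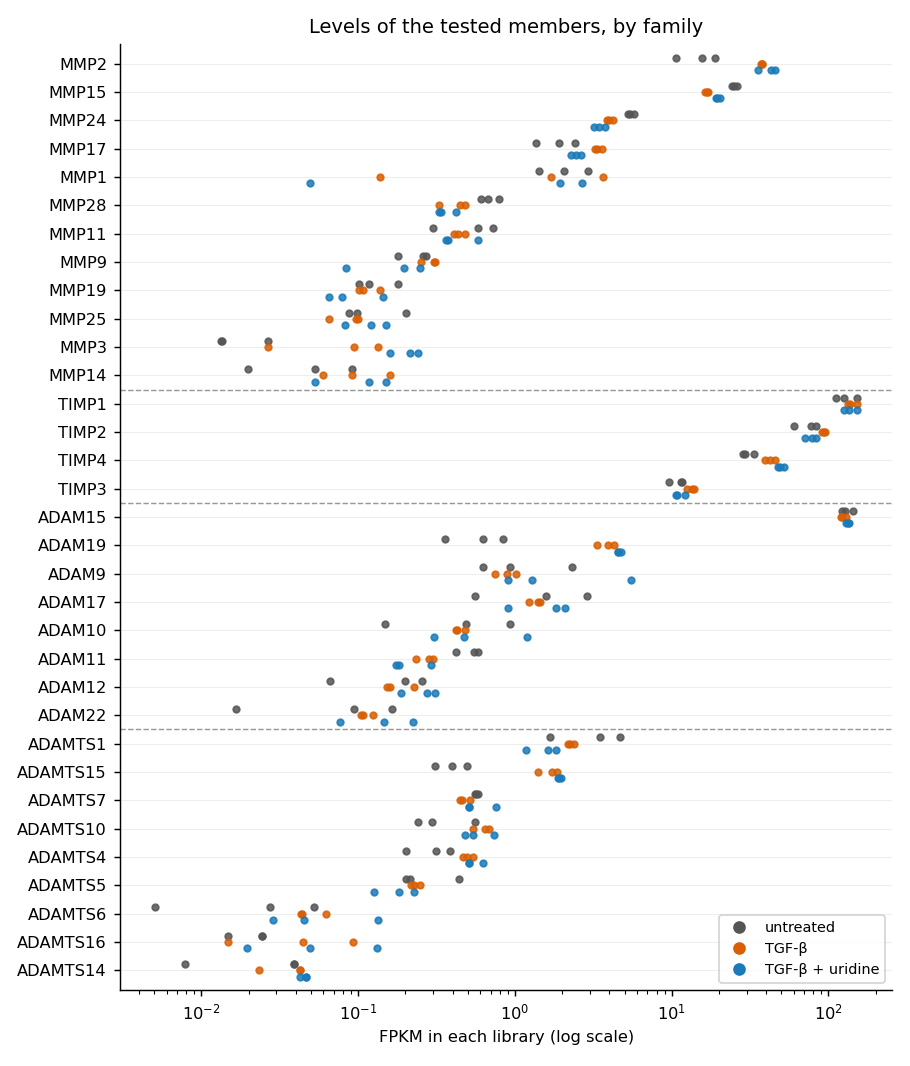
FPKM of the 33 tested members in each library on a log axis, grouped by family and ordered by mean level, with 1 point per library coloured by group. TIMP1, ADAM15 and TIMP2 sit at the right, MMP2 and ADAM19 lie higher in both treated groups than in the untreated group, and MMP1 has 1 TGF-β point and 1 uridine point far to the left of the others.

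To see which members responded to TGF-β, the TGF-β group was compared with the control group by edgeR's quasi-likelihood test, with Benjamini-Hochberg adjustment over all 13384 genes. At an adjusted p under 0.05, 3 of the 33 tested members rose, ADAM19, ADAMTS15 and MMP2, beside 2.42% of all tested genes. None fell, beside 0.964% of all tested genes, and 3.38% of all tested genes were called in either direction. At an unadjusted p under 0.05, 10 members were higher, beside 6.69% of all tested genes, and 4 were lower, beside 5.43%, which makes 14 of 33 (42.4%) beside 12.1%. DESeq2 called 6 members, beside 6.43% of all tested genes, adding ADAMTS4 and TIMP2 on the higher side and MMP15 on the lower. With limma on log2(FPKM + 1) at a mean FPKM of at least 0.5, 7 of the 18 members in that fit were called, beside 8.1% of its genes. Beyond the edgeR calls, that fit added MMP17 and TIMP4 on the higher side and MMP15 and MMP24 on the lower. The groups did not overlap for 9 higher members, beside 9.72% of all tested genes, and for 4 lower members, beside 7.96%, or 13 (39.4%) beside 17.7%. The 10 and the 9 higher members both included MMP3, which passed the filter on low counts only through the group given TGF-β and uridine. Without control replicate 1, the count was 6 higher and 2 lower, beside 5.18% and 2.75% of all genes in that fit. The median log2 fold change of the 33 members was 0.13, beside −0.05 over all tested genes, and the median of its absolute value was 0.46, beside 0.19.

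No member passed the test when uridine was added to TGF-β. The group given TGF-β and uridine was compared with the group given TGF-β alone, and edgeR called 0 of the 33 members, beside 0.0448% of all tested genes. At an unadjusted p under 0.05, 4 members passed (12.1%, beside 8.79% of all tested genes), namely ADAM9 on the higher side, beside 4.65%, and ADAMTS1, TIMP2 and TIMP3 on the lower side, beside 4.14%. DESeq2 called TIMP2 alone, beside 1.78% of all tested genes, and limma on log2 FPKM called none. The groups did not overlap for 8 members (24.2%), 2 of them higher and 6 lower, beside 25.6% of all tested genes (12.8% in each direction), so the share was near the background. The 2 higher were MMP15 and MMP3, and MMP3 passed the filter on low counts only through the libraries given uridine.

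Against the control group, the libraries given TGF-β and uridine had 5 members that rose, ADAM19, ADAMTS15, ADAMTS4, MMP2 and MMP3, beside 2.89% of all tested genes. MMP3 had passed the filter on low counts only through the group in which it was high, so it is no support for the counts of higher members in this comparison. ADAMTS1 and MMP24 fell, beside 2.44% of all tested genes, and 5.33% were called in either direction. At an unadjusted p under 0.05, 6 members were higher, beside 9.08% of all tested genes, and 6 lower, beside 8.55%, or 12 (36.4%) beside 17.6%. The groups did not overlap for 7 higher members, beside 10.5%, and 5 lower members, beside 9.2%, or 12 (36.4%) beside 19.7%. DESeq2 called 9 members, beside 9.66% of all tested genes, adding ADAM11 and MMP28 on the lower side. With every gene listed, limma on log2(FPKM + 1) called 9 of the 51 members in that fit, beside 6.56% of its genes. This comparison uses the same 3 control libraries as the first, so the 2 sets of calls are not independent. A member called here and not with TGF-β alone is not thereby shown to differ between the treated groups, for which the direct comparison stands.

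**Figure D2:**
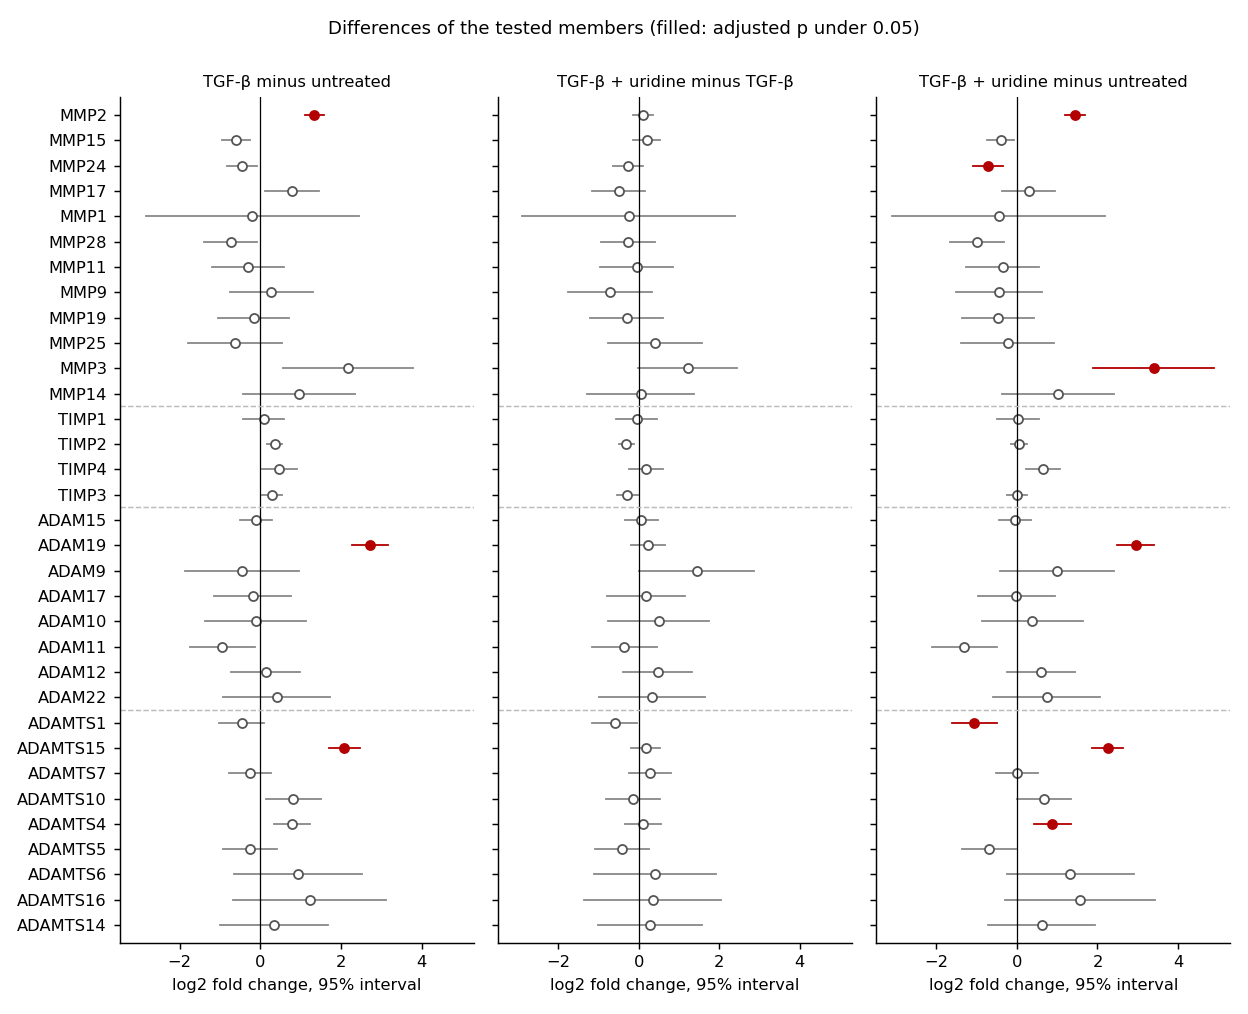
Log2 fold change of each tested member in the 3 comparisons, with its 95% interval from edgeR, filled and red where the adjusted p was under 0.05. ADAM19, ADAMTS15 and MMP2 are filled in both comparisons with untreated cells, ADAMTS4, MMP3, ADAMTS1 and MMP24 in the right panel alone, and no member is filled in the middle panel.

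Among the gelatinases, MMP2, which degrades denatured collagen and basement membrane collagen, rose with TGF-β. It lies on the plus strand at chr16:55389700-55506691 (GRCh38, GENCODE v29). MMP2 was at 53.4, 62.0 and 67.1 CPM in control replicates 1 to 3, at 159, 154 and 150.2 CPM with TGF-β and at 179, 156 and 163 CPM with TGF-β and uridine. Every treated library was above every control library, and the treated groups overlapped. The rise with TGF-β was 2.53-fold, from 60.8 ± 6.93 to 154 ± 4.18 CPM (SD, n = 3). On the log2 scale this was 1.34 (SE 0.11, edgeR adjusted p = 0.00024). With uridine added the difference from TGF-β was 0.11 on the log2 scale (95% interval −0.14 to 0.35, edgeR adjusted p = 0.91), and the difference from the control group was 1.45 (SE 0.11, edgeR adjusted p = 0.00017).

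The other gelatinase, MMP9, was low, at 17 to 26 reads per control library, 24 to 30 with TGF-β and 8 to 24 with TGF-β and uridine. Its log2 fold change was 0.27 with TGF-β (95% interval −0.76 to 1.30), and the groups overlapped in all 3 comparisons. No direction can be read for MMP9.

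The collagenases open the fibrillar collagen triple helix. MMP1, the interstitial collagenase at chr11:102789920-102798160, differed more within the groups than between them. It was counted at 167, 114 and 236 reads in the control libraries, at 294, 138 and 11 reads with TGF-β and at 4, 216 and 156 reads with TGF-β and uridine. The highest and lowest libraries differed 1.82-fold in the control group, 27.6-fold with TGF-β and 60.7-fold with TGF-β and uridine on the CPM scale. The low libraries were TGF-β replicate 3 and uridine replicate 1, with GC slopes of 7.82 and 7.44, while the other treated libraries had slopes of 5.29 to 10.2. The correlation of MMP1 with the slope, both as deviations from the group mean over the 9 libraries, was 0.11. The log2 fold change of MMP1 was −0.20 with TGF-β (95% interval −2.83 to 2.44) and −0.25 on adding uridine (95% interval −2.89 to 2.39), so neither direction can be read. MMP13, the other collagenase listed, had 0 to 9 reads per library and was not tested. A count of 0 allows up to 3 reads, which is 0.0629 to 0.0889 CPM in these libraries, and such limits cover counting error only.

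MMP3, or stromelysin 1, cleaves proteoglycans and activates other MMP precursors, and it lies beside MMP1 at chr11:102835801-102843803. It was counted at 1, 1 and 2 reads in the control libraries, at 7, 2 and 10 reads with TGF-β and at 12, 16 and 18 reads with TGF-β and uridine. The 3 groups were ordered with no overlap between neighbours by CPM, but every library was near the limit of detection. With TGF-β and uridine against the control group, the 46 reads against 4 gave a ratio of 11.3, with a 95% counting interval of 4.13 to 43.3, and the edgeR adjusted p was 0.021. This p is no independent support, since MMP3 reached the filter's level in no control library, in 1 TGF-β library and in all 3 uridine libraries, and 3 libraries were needed. With at least 10 counts required in every library, MMP3 was not tested. With TGF-β alone, 19 reads against 4 gave a ratio of 4.80 (counting interval 1.60 to 19.4, edgeR adjusted p = 0.19). Between the treated groups the ratio was 2.36 (counting interval 1.35 to 4.26, edgeR adjusted p = 0.57). The adjusted p against the control group was above 0.05 without control replicate 2, without control replicate 3 and without any of the 3 uridine libraries, reaching 0.11.

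Of the membrane-type MMPs, which are anchored at the cell surface and cleave matrix beside the cell, MMP15 and MMP24 were lower in treated cells. MMP24 at chr20:35226654-35277000 was at 32.2, 24.1 and 21.0 CPM in the control libraries, at 19.9, 18.5 and 17.8 CPM with TGF-β and at 15.2, 15.8 and 15.9 CPM with TGF-β and uridine. The 3 groups followed each other downwards without overlap, and the control replicates spread over a 1.54-fold range. MMP24 fell by 0.72 on the log2 scale with TGF-β and uridine (SE 0.16, edgeR adjusted p = 0.040), and its differences were −0.46 with TGF-β alone (edgeR adjusted p = 0.23) and −0.26 on adding uridine (95% interval −0.63 to 0.11). That call held in the fits without control replicate 1 or control replicate 3 and was lost in the other 7 that left out 1 library, with adjusted p-values of up to 0.16. The antisense gene MMP24OS covers 50347 bases of MMP24, had 971 to 1580 reads per library and a log2 fold change of −0.28 in that comparison, and since no source used here gives the strand setting of the counting, the reads of the pair cannot be told apart.

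MMP15, the most abundant membrane-type member, was at 130.1, 95.1 and 87.1 CPM in the control libraries, at 70.9, 68.3 and 66.2 CPM with TGF-β and at 79.2, 84.6 and 72.5 CPM with TGF-β and uridine. Every control library was above every treated library, and every library with uridine was above every library with TGF-β alone. MMP15 was not called in any comparison in the main edgeR fit. In TGF-β against the control group, 7 of 12 other settings called MMP15 lower, DESeq2 and limma among them. MMP15 differed by −0.60 on the log2 scale with TGF-β (SE 0.15, edgeR adjusted p = 0.072) and by 0.20 (95% interval −0.13 to 0.54) on adding uridine. MMP17 was at 9.12, 5.72 and 3.67 CPM in the control libraries, at 10.3, 10.4 and 11.1 CPM with TGF-β and at 6.86, 8.23 and 7.57 CPM with TGF-β and uridine. The TGF-β libraries were thus the highest, by 0.78 on the log2 scale against the control group (edgeR adjusted p = 0.27), and the uridine libraries were 0.49 below them (95% interval of the difference −1.15 to 0.17). MMP14, the best known membrane-type enzyme and an activator of the MMP2 precursor, had 3, 8 and 14 reads in the control libraries, 9, 14 and 24 with TGF-β and 18, 23 and 8 with TGF-β and uridine. The groups overlapped, and the log2 fold change was 0.96 with TGF-β (95% interval −0.42 to 2.35) and 0.05 on adding uridine (95% interval −1.27 to 1.37).

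In the main edgeR fit, the 4 TIMPs gave no call in any comparison. Without control replicate 1, edgeR called TIMP2 with TGF-β and TIMP4 in both comparisons with the control group. TIMP2 was also called with TGF-β by edgeR under upper-quartile scaling and with at least 10 counts required in every library. DESeq2 called TIMP2 in TGF-β against the control group and between the treated groups, and limma on FPKM called TIMP4 in both comparisons with the control group. TIMP2, which inhibits MMPs and also takes part in MMP2 activation at the cell surface, lies at chr17:78852977-78925387. It was at 268, 274 and 262 CPM in the control libraries, at 356, 343 and 332 CPM with TGF-β and at 291, 278 and 267 CPM with TGF-β and uridine. The TGF-β libraries stood above all the others, and the uridine libraries overlapped with the control libraries. The log2 fold change was 0.36 with TGF-β (SE 0.08, edgeR adjusted p = 0.056), −0.30 on adding uridine (SE 0.08, 95% interval −0.49 to −0.11, edgeR adjusted p = 0.32) and 0.06 for both treatments against the control group (95% interval −0.13 to 0.24). Over the other settings and left-out libraries, the adjusted p on adding uridine ranged from 0.00050 to 0.91.

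TIMP3, the matrix-bound inhibitor that also blocks ADAM17, ran the same course in these libraries. It was at 54.2, 51.3 and 45.7 CPM in the control group, at 65.5, 58.0 and 61.5 CPM with TGF-β and at 53.9, 53.1 and 45.3 CPM with TGF-β and uridine. The TGF-β libraries were again above the rest, with a log2 fold change of 0.29 with TGF-β (95% interval 0.04 to 0.55, edgeR adjusted p = 0.30) and −0.28 on adding uridine (95% interval −0.54 to −0.03, edgeR adjusted p = 0.51). TIMP4 was at 48.8, 33.7 and 29.2 CPM, at 56.5, 47.4 and 50.6 CPM and at 56.2, 66.7 and 52.3 CPM in the same order of groups. Its difference for both treatments against the control group was 0.65 on the log2 scale, with no overlap (SE 0.19, edgeR adjusted p = 0.099).

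TIMP1, a broad inhibitor and a usual marker of liver fibrosis, spread widely within the groups. It was at 343, 223 and 178 CPM in the control libraries, at 288, 254 and 243 CPM with TGF-β and at 224, 302 and 232 CPM with TGF-β and uridine. The groups overlapped, and the log2 fold change was 0.08 with TGF-β (95% interval −0.44 to 0.59) and −0.05 on adding uridine (95% interval −0.57 to 0.46). TIMP1, TIMP3 and TIMP4 lie wholly within the spans of the synapsin genes SYN1, SYN3 and SYN2 on the opposite strand, which had at most 69 reads in any library.

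**Figure D3:**
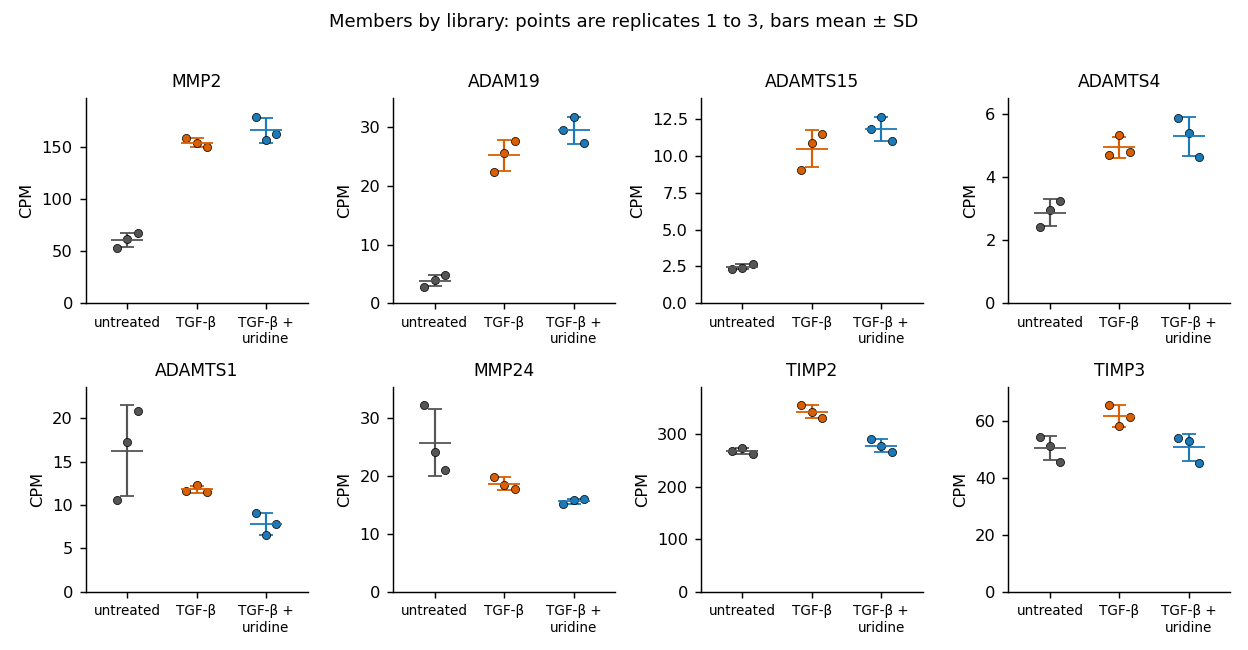
CPM of 8 members in each library, with 3 points per group for replicates 1 to 3 from left to right and a bar at the mean ± SD, each panel starting at 0. MMP2, ADAM19, ADAMTS15 and ADAMTS4 sit at the control level in the untreated group and higher in both treated groups, ADAMTS1 and MMP24 are lowest with TGF-β and uridine, and TIMP2 and TIMP3 are highest with TGF-β alone.

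Summed over the family, the 18 MMPs reached 49.2 to 55.1 FPKM in the control libraries, 62.6 to 67.1 FPKM with TGF-β and 64.9 to 72.9 FPKM with TGF-β and uridine. The 4 TIMPs reached 235 to 256 FPKM, 281 to 306 FPKM and 270.3 to 286 FPKM. Both sums were higher in every treated library than in any control library, while the ratio of the TIMP sum to the MMP sum overlapped between the groups, at 4.26 to 5.21, 4.37 to 4.56 and 3.70 to 4.41. MMP2 made up 21.7% to 34.4% of the MMP sum in the control libraries and 54.7% to 62.3% in the treated libraries. The rise of the MMP sum was carried by MMP2, at 10.7 to 19.0 FPKM in the control libraries and 35.5 to 45.4 FPKM in the treated libraries. MMP15, the next highest MMP, went the other way, from 24.3 to 26.3 FPKM down to 16.4 to 20.2 FPKM.

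The ratio of MMP2 to TIMP2, taken within a library and so free of its scaling, separated all 3 groups. It was 0.178, 0.202 and 0.228 in the control libraries, 0.397, 0.40 and 0.403 with TGF-β and 0.549, 0.50 and 0.544 with TGF-β and uridine. Every library with uridine was above every library with TGF-β alone, and both were above every control library. In the control libraries the ratio rose as the GC slope fell, at slopes of 13.5, 7.22 and 3.90. In each treated group it was lowest in the library with the highest slope, 8.47 with TGF-β and 10.2 with TGF-β and uridine. The part of the slope in the ratio was not tested. These sums and this ratio are given as a description, with no test. The 2 genes were chosen for this ratio with their values known.

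**Figure D4:**
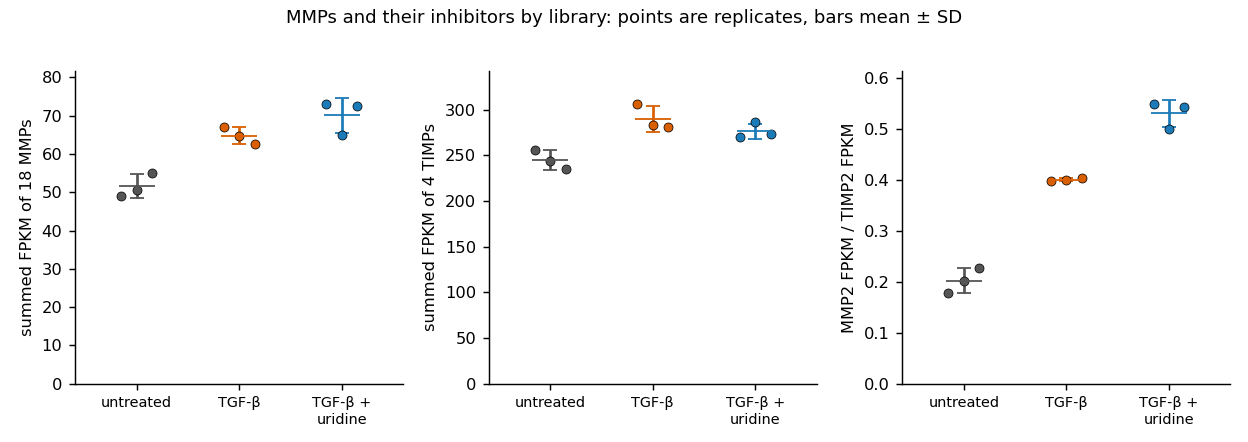
Summed FPKM of the MMPs, summed FPKM of the TIMPs and the ratio of MMP2 to TIMP2 FPKM in each library, with the mean ± SD per group and axes from 0. The ratio lies between 0.178 and 0.228 in untreated cells, between 0.397 and 0.403 with TGF-β and between 0.50 and 0.549 with TGF-β and uridine.

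ADAM19, a sheddase that cleaves neuregulins, showed the largest change of the members with TGF-β, and with TGF-β and uridine only the few reads of MMP3 gave a larger fitted one. ADAM19 lies on the minus strand at chr5:157395534-157575775, and its promoter is the first of the sequences shown above. It was at 2.81, 3.91 and 4.74 CPM in the control libraries, at 22.5, 25.6 and 27.7 CPM with TGF-β and at 29.5, 31.8 and 27.2 CPM with TGF-β and uridine. The treated groups overlapped each other and were far above the control group. ADAM19 rose 6.59-fold with TGF-β, from 3.82 ± 0.966 to 25.2 ± 2.64 CPM (SD, n = 3). On the log2 scale this was 2.72 (SE 0.20, edgeR adjusted p = 0.00014). It rose 7.70-fold with TGF-β and uridine (2.94 on the log2 scale, SE 0.20, edgeR adjusted p = 0.00010), and the difference between the treated groups was 0.23 on the log2 scale (95% interval −0.20 to 0.65).

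ADAM15 carried nearly all of the ADAM signal, at 90.1% to 98.3% of the summed ADAM FPKM in each library. It was at 569, 399 and 342 CPM in the control libraries, at 432, 390.2 and 389 CPM with TGF-β and at 412, 470.0 and 387 CPM with TGF-β and uridine. The groups overlapped, with log2 fold changes of −0.11 (95% interval −0.52 to 0.29) and 0.07 (95% interval −0.34 to 0.47).

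The main sheddases ADAM10 and ADAM17, which release Notch ligands, receptors and tumour necrosis factor from the membrane, differed more between libraries of a group than between groups. ADAM17 was at 4.5, 10.1 and 16.7 CPM in the control libraries, at 8.45, 9.42 and 9.6 CPM with TGF-β and at 11.8, 6.51 and 12.9 CPM with TGF-β and uridine. ADAM10 was at 2.04, 5.33 and 9.04 CPM, at 4.93, 5.45 and 4.77 CPM and at 5.16, 3.74 and 12.5 CPM. Both correlated inversely with the GC slope of the library, which was not tested as a cause. Control replicate 1, with the highest slope, was the lowest library for both genes. The gene models of ADAM10 and ADAM17 hold 38.3% and 38.5% G or C.

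ADAM9, another sheddase, was at 5.77, 4.55 and 23.6 CPM with TGF-β and uridine against 4.88, 4.14 and 3.46 CPM with TGF-β and 3.55, 4.19 and 9.29 CPM in the control group. The difference of 1.44 on adding uridine (95% interval 0.02 to 2.87, edgeR adjusted p = 0.55) rests on uridine replicate 3: without that library it was 0.31 (SE 0.42), and the groups overlapped. ADAM12, a TGF-β responsive gene in many fibroblasts, was at 0.889 to 2.43 CPM in the control group, 1.66 to 2.49 CPM with TGF-β and 2.22 to 3.26 CPM with TGF-β and uridine. Its log2 fold change was 0.13 with TGF-β (95% interval −0.72 to 0.98) and 0.47 on adding uridine (95% interval −0.38 to 1.32). ADAM11, an ADAM without protease activity, lay below the control group in both treated groups, at 1.85 to 3.61 CPM against 1.19 to 1.58 CPM and 0.858 to 1.59 CPM (edgeR adjusted p = 0.27 and 0.078). DESeq2 and limma with every gene listed called it with both treatments. ADAM11 is named here after its values were seen.

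**Figure D5:**
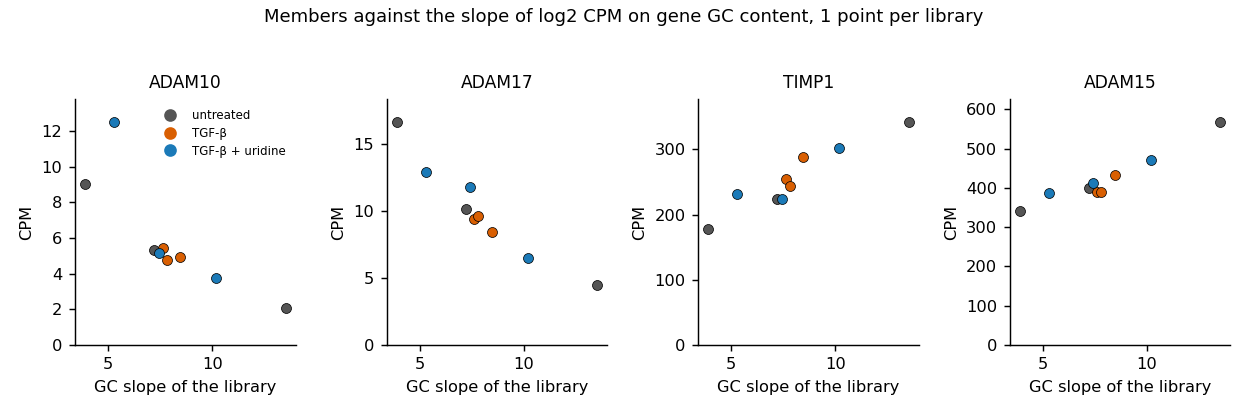
CPM of ADAM10, ADAM17, TIMP1 and ADAM15 against the slope of log2 CPM on gene GC content, with 1 point per library coloured by group and the CPM axes from 0. ADAM10 and ADAM17 fall and TIMP1 and ADAM15 rise along the axis, and the 2 ends of the axis are both control libraries, at slopes of 3.90 and 13.5.

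This relation to the slope was given as a description over the 9 libraries, which share the same genes and depth. The correlation of a member's log2 CPM with the slope, both taken as deviations from the group mean, was −0.99 for ADAM17 and −0.95 for ADAM10, against 0.98 for ADAM15 and MMP15, 0.97 for TIMP4 and 0.96 for TIMP1. Of the 7 members called in a comparison it was −0.92 for ADAMTS1, −0.82 for MMP2, −0.70 for ADAM19, −0.54 for ADAMTS4, −0.21 for ADAMTS15, −0.02 for MMP3 and 0.87 for MMP24, and it was 0.28 for TIMP2. The part of the slope in these results was not tested beyond the following fit. With the slope added to the edgeR model as a covariate, the direct comparison of the treated groups called 6 of the 33 members. That share was near the background, since 19.1% of all tested genes were called in the same fit. The comparison of TGF-β with the control group then called 13 members, beside 20.3%, and that of both treatments with the control group 15, beside 31.2%. Between the treated groups, TIMP2 (−0.30, adjusted p = 0.00050), TIMP3 (−0.27, adjusted p = 0.0096), ADAMTS1 (−0.63, adjusted p = 0.0022) and MMP17 (−0.45, adjusted p = 0.037) were lower with uridine, and MMP15 (0.22, adjusted p = 0.0061) and TIMP4 (0.20, adjusted p = 0.028) higher, all on the log2 scale in edgeR. The direction of each was that of the fit without the covariate, and the slope was itself taken from these counts.

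Among the ADAMTS proteoglycanases, which cut aggrecan and versican, ADAMTS15 rose. It lies at chr11:130448974-130476641 and was at 2.34, 2.41 and 2.68 CPM in the control libraries, at 9.08, 10.9 and 11.5 CPM with TGF-β and at 11.9, 12.7 and 11 CPM with TGF-β and uridine. The treated groups overlapped and both stood clear of the control group. ADAMTS15 rose 4.23-fold with TGF-β (log2 fold change 2.08, SE 0.17, edgeR adjusted p = 0.00024) and 4.78-fold with TGF-β and uridine (2.26, SE 0.17, edgeR adjusted p = 0.00017). The difference between the treated groups was 0.18 (95% interval −0.19 to 0.54).

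ADAMTS4, an aggrecanase at chr1:161184308-161199056, was at 2.40, 2.95 and 3.25 CPM in the control libraries, at 4.70, 5.33 and 4.77 CPM with TGF-β and at 5.86, 5.38 and 4.63 CPM with TGF-β and uridine. Both treated groups were above the control group by a similar amount, 0.78 on the log2 scale (SE 0.20, edgeR adjusted p = 0.080) and 0.88 (SE 0.20, edgeR adjusted p = 0.039), of which the second passed. The difference between them was 0.10 (95% interval −0.35 to 0.55). The call was kept in 2 of 9 fits that left out 1 library, those without control replicate 1 or control replicate 3, and its adjusted p reached 0.16 in the others.

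ADAMTS1, which cleaves versican and aggrecan, moved the other way from ADAMTS15 and ADAMTS4. At chr21:26835747-26845409, it was at 10.5, 17.3 and 20.9 CPM in the control libraries, at 11.6, 12.3 and 11.5 CPM with TGF-β and at 9.14, 6.56 and 7.79 CPM with TGF-β and uridine. All libraries with uridine were below all others, while control replicate 1 was below the TGF-β libraries and the other control libraries above them. ADAMTS1 fell by 1.05 on the log2 scale with TGF-β and uridine against the control group (SE 0.25, edgeR adjusted p = 0.044), with differences of −0.46 with TGF-β (95% interval −1.02 to 0.09) and −0.59 on adding uridine (95% interval −1.15 to −0.04, edgeR adjusted p = 0.53). The call against the control group held in 1 of 9 fits that left out a library, the one without control replicate 1 (edgeR adjusted p = 0.00085), and its adjusted p reached 0.16 in the others.

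By edgeR without a covariate, the other ADAMTS members gave no call. With the GC slope covariate, ADAMTS10 was called in TGF-β against the control group, and ADAMTS5 and ADAMTS6 with both treatments. ADAMTS10, which takes part in fibrillin microfibrils, was at 1.63, 1.05 and 2.16 CPM in the control libraries, at 3.17, 2.93 and 2.44 CPM with TGF-β and at 2.35, 2.33 and 3.05 CPM with TGF-β and uridine. Both treated groups were above the control group, by 0.82 (SE 0.30, edgeR adjusted p = 0.26) and 0.67 (SE 0.30, edgeR adjusted p = 0.29) on the log2 scale. ADAMTS7, known for cleaving cartilage oligomeric matrix protein, was at 2.72 to 4.18 CPM in all 9 libraries with no order between the groups. The remaining tested members gave no edgeR call without a covariate, and ADAM22 was called with the GC slope covariate for both treatments. MMP11 had 28 to 66 reads per library, MMP19 9 to 25, MMP25 14 to 44 and ADAM22, an ADAM without protease activity, 7 to 93. ADAMTS5, ADAMTS6, ADAMTS14 and ADAMTS16 had 52 to 182, 3 to 79, 2 to 12 and 3 to 27 reads per library.

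The 18 members that were not tested had between 0 and 23 reads in any library. These were MMP7, MMP10, MMP12, MMP13, MMP16 and MMP23B among the MMPs, ADAM8, ADAM20, ADAM21, ADAM23, ADAM32 and ADAM33 among the ADAMs, and ADAMTS2, ADAMTS9, ADAMTS12, ADAMTS13, ADAMTS17 and ADAMTS20. MMP7 and MMP10, whose promoters are shown above, had 0 to 5 and 0 to 2 reads per library. ADAMTS2, the main procollagen N-proteinase of fibrillar collagens, had 1 read in all 9 libraries together. For such members no difference was detectable at this depth.

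Other genes of matrix proteolysis were taken from 5 lists, of which 43 of 45 genes were listed and 31 tested. With TGF-β, 3 of the 31 rose, beside 2.42% of all tested genes, and none fell, beside 0.964% (median log2 fold change 0.06). With TGF-β and uridine against the control group 4 rose, beside 2.89%, and 1 fell, beside 2.44% (median 0.04). On adding uridine none passed the edgeR test, beside 0.0448% (median 0.04). FURIN, the convertase that activates membrane-type MMPs and ADAMs by removing their propeptide, was at 237, 186 and 177 CPM in the control libraries, at 337, 326 and 325 CPM with TGF-β and at 343, 358 and 315 CPM with TGF-β and uridine. It rose 1.65-fold with TGF-β (edgeR adjusted p = 0.013) and 1.69-fold with both (edgeR adjusted p = 0.0082).

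BMP1, the procollagen C-proteinase, was at 97.3, 78.1 and 81.8 CPM in the control libraries, at 129.7, 125 and 121 CPM with TGF-β and at 117, 119 and 111 CPM with TGF-β and uridine. It rose 1.46-fold with TGF-β (edgeR adjusted p = 0.022) and 1.35-fold with both (edgeR adjusted p = 0.046). HTRA1, a secreted serine proteinase, rose 1.86-fold with TGF-β (edgeR adjusted p = 0.0018) and 2.48-fold with both (edgeR adjusted p = 0.00023). Its libraries were at 18.3 to 20.2 CPM, 34.9 to 37.4 CPM and 43.9 to 51.6 CPM in the 3 groups, with no overlap. The difference between the treated groups was 0.42 on the log2 scale (SE 0.10, edgeR adjusted p = 0.26). These 2 groups did not overlap for 25.6% of all tested genes.

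Of the 6 tested tetraspanins that guide ADAM10 to the surface, 1 rose and 1 fell with TGF-β and uridine against the control group. TSPAN14 rose from 28.8 ± 1.37 to 40.0 ± 0.565 CPM (SD, n = 3), and TSPAN33 fell by 1.05 on the log2 scale, from 9.22 ± 2.34 to 4.44 ± 0.514 CPM (SD, n = 3). Their edgeR adjusted p-values were 0.019 and 0.026. With TGF-β alone TSPAN14 was at 38.1 CPM and TSPAN33 at 5.56 CPM. Their log2 fold changes against the control group were then 0.40 and −0.73 (edgeR adjusted p = 0.051 and 0.14). On adding uridine the differences were 0.07 and −0.32 (edgeR adjusted p = 0.96 and 0.79). Of the lists, 11 activators and partners, 4 other inhibitors, 5 ADAMTS-like genes, 3 astacins and procollagen processing genes and 8 other matrix proteinases were tested. None of the other inhibitors and none of the ADAMTS-like genes passed the test in any comparison.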

How the data were processed

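RNA was sequenced from 9 libraries of LX-2 cells, 3 per group. The authors deposited read counts per gene, not normalized, and FPKM per gene, in 2 tables with 9 columns of samples each. The submitters' processing notes name fastp, HISAT2, HTSeq, R 3.2.0 and GRCh38.p13, with no role or order. The annotation and the strand setting were not given in the sources used here.

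Groups were taken from the sample labels. Counts were tested with edgeR 4.0.16 (R 4.3.3, TMM scaling, filterByExpr, 1 quasi-likelihood model of 3 groups with 6 residual degrees of freedom), with Benjamini-Hochberg adjustment over 13384 genes and a threshold of 0.05, on two-sided tests. Common biological variation was 0.289 (coefficient), and TMM factors were 0.820 to 1.16. CPM values are scaled by these factors, whereas the FPKM are the authors' own and are not. The standard error is the log2 fold change over the square root of F. Replicates differed by more than counting noise. DESeq2 1.42.0, limma 3.58.1 on log2(FPKM + 1) and log2(FPKM + 0.1), other scalings and filters, the GC slope, a replicate block and leaving out each library were tried as alternatives. The count test was also run on simulated data. These had the same spread setting for every gene and group and no differences in GC slope, so that run cannot stand for the real libraries in either respect. Gene positions and GC content came from GENCODE v29 (12818 of 13384 tested genes, 95.8%), promoter sequences from RefSeq on GRCh38.p14.

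Of the 33 tested members, 3 (MMP3, ADAMTS14 and ADAMTS16) would not have passed the filter without 1 of the treated groups. The members and lists were chosen with earlier results of these data known. Genes are named by rule: every member called in any comparison, every TIMP, a list of 10 well-known members, the 5 largest changes per comparison among members whose mean log2 CPM reached 1, the 3 highest members per family by FPKM, and related genes that were called. Other members are named to account for every member or were chosen after their values were seen. Some results on overlapping genes and markers are not reported here.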

Additional observations from a re-analysis of the deposited data

How the results depend on the processing

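ADAM19, ADAMTS15 and MMP2 passed the test against the control group in all 12 other settings and in all 9 fits that left out 1 library, in both comparisons with the control group. The counts of members moved, and so did the share of all genes called. With TGF-β against the control group that share was 3.38%, against 6.43% by DESeq2, 8.1% and 8% by limma with 1 or 0.1 added, 3.83% by limma on every gene, 3.95% with upper-quartile scaling, 20.3% with the GC slope covariate and 17.5% with the block added. On adding uridine it was 0.0448%, against 1.78% by DESeq2, 19.1% with the covariate and 15.5% with the block added. With both treatments it was 5.33%, against 9.66% by DESeq2, 6.37% with upper-quartile scaling, 2.64% with no filter, 1.7% with 2 groups, 6.56% by limma on every gene, 31.2% with the covariate and 28.1% with the block added. Leaving out 1 library gave 1.59% to 7.93%, 0% to 1.98% and 2.23% to 17.6% in the same order, each highest without control replicate 1. With TGF-β against the control group, 3 rose and 0 fell, against 5 and 1 by DESeq2, 5 and 2 by limma on log2(FPKM + 1) or log2(FPKM + 0.1) with a mean FPKM of at least 0.5, 4 and 2 by limma on every gene listed, 4 and 1 with upper-quartile scaling, 9 and 4 with the GC slope covariate, and 8 and 4 with that covariate and the replicate block. The members tested were 33 in the main fit, 18 by limma at a mean FPKM of at least 0.5 and 51 by limma on every gene listed. Leaving out 1 library gave 3 to 6 higher and 0 to 2 lower, the most without control replicate 1.

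On adding uridine, 0 rose and 0 fell, against 0 and 1 by DESeq2, 2 and 4 with the GC slope covariate, and 1 and 3 with that covariate and the replicate block, and 0 to 0 in each direction when 1 library was left out. With both treatments against the control group, 5 rose and 2 fell. The higher count was 9 with the GC slope covariate, 8 with the covariate and block, and 3 to 7 when 1 library was left out. The lower count was 1 with an absolute log2 fold change of at least 1, 4 by DESeq2, 1 with upper-quartile scaling, 1 with no filter on low counts, 0 with only the 2 groups compared, 4 by limma on every gene listed, 6 with the GC slope covariate, 5 with the covariate and block, and 0 to 2 when 1 library was left out. The higher count was 3 without control replicate 2 or any uridine library, and the lower count was 2 without control replicate 1 or 3 and 0 without any other library. In all 3 comparisons no named member's call changed its direction. Except where fewer libraries or other genes entered the fit, the cause was not tested.

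With the replicate number as a block, 3 members rose with TGF-β, 4 rose and 0 fell with both treatments, and none moved on adding uridine. Same-numbered libraries gave correlations of deviations of 0.218, 0.0955 and 0.0846 (TGF-β and control), −0.124, −0.0924 and −0.0312 (the treated groups) and −0.177, −0.210 and 0.558 (both treatments and control). Differently numbered libraries reached 0.632 and −0.663 (both treatments and control). Not every same-numbered pair was over 0.1, and these values cannot show whether the replicates were paired. Depth limits members with few reads, of which 18 were not tested.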

Other observations

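Some members read at a few counts lay apart between groups. They were picked after their values were seen, and none was tested. ADAM21, a testis-type ADAM, had 1, 5 and 2 reads in the control libraries, 4, 6 and 2 with TGF-β and 0, 0 and 0 with TGF-β and uridine. MMP23B had 0, 1 and 1 reads, 0, 0 and 0 reads and 2, 9 and 11 reads in the same order. ADAMTS12 had 0, 2 and 3 reads, 4, 7 and 4 reads and 8, 7 and 6 reads. MMP28, which was tested, was at 2.03 to 3.35 CPM in the control group, at 1.14 to 1.74 CPM with TGF-β and at 1.14 to 1.36 CPM with TGF-β and uridine, with adjusted p-values against the control group of 0.32 and 0.10 in edgeR, while DESeq2 and limma with every gene listed called it lower with both treatments. MMP23B overlaps CDK11B, which had 668 to 958 reads per library, by 37 bases on the opposite strand.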
